A study of Homo sapiens with 6 samples.

Results

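Endocytosis and vesicle transport genes were followed in AGS cells after treatment with SSD. Members were chosen by annotation, within a deposited table that the authors had already selected by small p-values in these libraries. Genes of the lysosome or autophagy pathways were left out. The annotation terms were the KEGG pathways of endocytosis and of SNARE interactions, and the gene ontology terms for intracellular protein transport and vesicle-mediated transport. A further ontology term was transport from the endoplasmic reticulum (ER) to the Golgi. Of the 1099 genes in the table, 43 carried one of these terms, 2 of them (CTSA and IGF2R) were left out as lysosome or autophagy genes, and 41 remained. The ontology term for intracellular protein transport gave 17 members, the endocytosis pathway 12, ER to Golgi transport 12 and vesicle-mediated transport 5, with 5 members in more than 1 of them. No gene of the SNARE pathway stood in the table.

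AGS is an established human gastric adenocarcinoma cell line, and SSD (saikosaponin-D) is a triterpenoid saponin of Bupleurum root. The design held 3 libraries of cells given vehicle and 3 of cells given SSD for 24 h, and asked how the transcriptome differs between them. The protocol fields of the sample labels name 10 μM of a compound with a code name and another cell line, C4-2B. The titles name SSD, the column headers name AGS, and the study's methods give AGS cells and a lower dose of SSD. Headers of the treated columns carry a code that matches the compound code and dose of the protocol fields. Neither the dose nor the compound code is therefore settled. The study describes its results in general as coming from independent experiments, but the labels do not say that the libraries of a group came from separate cultures, so p-values measure the spread between these libraries, which may be technical.

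Cells take up surface proteins in coated vesicles, and endosomes then either return the cargo to the surface or the Golgi or pass it on to lysosomes. On the endosome, ESCRT complexes sort ubiquitinated receptors for degradation, while retromer, sorting nexins and the actin-nucleating WASH complex carry cargo back. The outward route runs from the ER in COPII-coated vesicles to the Golgi, with COPI-coated vesicles returning resident proteins.

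The table gives an estimated count and the TPM (its length-corrected share of a library's transcripts) of each gene in each library. It is a selection of genes with small p-values in the authors' own test of 11289 genes, so every share of changed genes in it is high by construction, and each count of members is read against the same count over the whole table. The listed genes held 3084337 to 4640114 counts per library, most in vehicle replicate 2, and 30.1% to 33.1% of the TPM, so these totals are not the depth. Among the cell type markers looked for, 2 of 15 gastric and epithelial ones were listed, CDH17 and TFF1, with a summed level of 116.3 to 125.7 TPM under vehicle and 66.9 to 90.7 TPM under SSD. The fibroblast gene COL1A1 was listed at 12.8 to 15.8 TPM and 10 to 14.9 TPM, and no prostate (0 of 9), leukocyte (0 of 8) or endothelial (0 of 4) marker stood in the table. In a table chosen for change a missing marker says nothing of its level, and whether these shifts had a part in the results below was not tested.

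Under SSD, 20 of the 41 members were higher and 5 were lower at an adjusted p below 0.05 in edgeR's quasi-likelihood test (Benjamini-Hochberg adjustment over 11289 genes), and 16 did not pass. Among the higher members were genes of endosomal sorting, such as the WASH complex subunits WASHC2A and WASHC5, the ESCRT-II subunit VPS36 and the sorting nexin SNX8. Among the lower members were the cell surface gene CD55, the receptor kinase GRK5, the ubiquitin ligase CBLC and the endosomal ATPase EHD4. Over the whole table, 33.8% of genes were called higher and 19.5% lower, against 48.8% and 12.2% of the members. In bulk RNA, fewer cells that express a gene and less RNA per cell cannot be told apart.

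All changes were small. Log2 fold changes of SSD over vehicle ran from -0.50 for GRK5 to 0.59 for CACFD1, with a median of -0.07 for the members and -0.14 for all listed genes. Every member above 0 was called higher, with log2 fold changes of 0.22 or more, and the 21 members below 0 began at -0.07. The whole table has the same gap, since no listed gene lay between -0.03 and 0.21. That gap lies mostly above 0 on this scale, and where the authors' test set its point of no change was not examined. In TPM, the 3 SSD libraries were all above the 3 vehicle libraries in 18 members (32.2% of the table) and all below in 12 (44.2%), and the groups overlapped in 11. With 3 libraries a group, an exact two-sided permutation test of a single gene cannot give a p below 0.1.

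**Figure D1:**
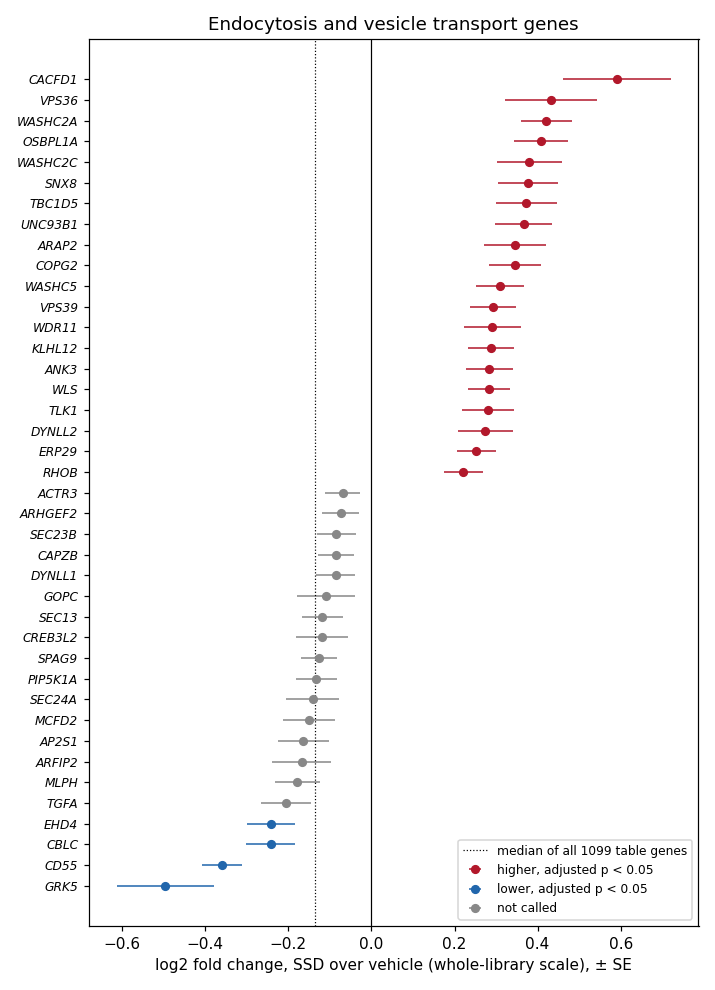
The log2 fold change of SSD over vehicle (x axis) of 40 of the 41 members, ordered by value, with bars of 1 standard error of the edgeR fit. The 20 members called higher lie at 0.22 or above, the 4 called lower that are shown at -0.24 or below, and the dotted line marks the median of all 1099 listed genes, -0.14.

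The scale between libraries set part of this picture. The values above use the whole-library scale, taken from the ratio of counts to TPM. With TMM scaling, which assumes that most listed genes do not change, log2 fold changes moved up by 0.07 at the median, 20 members were again called higher (35% of the table) and only CD55 stayed among those called lower (7.92% of the table), and the median of the members became 0.00. The same 20 members were higher on both scales. The number of calls also rested on single libraries: with vehicle replicate 2 left out 5 members were called higher, with vehicle replicate 3 left out 8, and with SSD replicate 2 left out 8, against 18 or 19 when any other library was left out. Calls of higher genes over all 1099 listed genes fell as well, from 371 to 169, 229 and 186 in these 3 fits. They numbered 333 to 382 when any other library was left out. The calls of 5 members survived the loss of any 1 library, those of WASHC2A, OSBPL1A, COPG2, WLS and CD55.

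The WASH complex nucleates branched actin on endosomes and works with retromer in returning cargo. Of the genes for its subunits, 3 were members, 2 of them paralogs of each other. All 3 were higher under SSD, where 33.8% of all listed genes were. WASHC2A (ENSG00000099290, chr10:50067888-50133506, plus strand, GRCh38) encodes a subunit that binds retromer. Its level was 12.9, 12.8 and 12.9 TPM under vehicle against 16.9, 16.7 and 18.0 TPM under SSD. The groups lay far apart relative to their spread, and the vehicle libraries barely differed. The log2 fold change was 0.42 ± 0.06 (SE; edgeR adjusted p = 0.00398). The paralog WASHC2C (ENSG00000172661, chr10:45727200-45792961, plus strand) went from 11.5, 11.7 and 11.0 TPM to 13.7, 14.3 and 15.8 TPM, again without overlap. Its log2 fold change was 0.38 ± 0.08 (edgeR adjusted p = 0.0141). The genes are near-identical paralogs, each with a deposited length of 4642 bases, so the authors' counting could have split reads between them. Their 2 calls may therefore not be independent. Summed over the pair the level rose from 24.3 ± 0.30 to 31.8 ± 1.79 TPM (SD, n = 3), 1.31-fold.

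WASHC5 (ENSG00000164961), the subunit called strumpellin, was at 24.2, 22.6 and 26.5 TPM under vehicle and at 30.1, 36.5 and 31.6 TPM under SSD. Its groups did not overlap, and its log2 fold change was 0.31 ± 0.06 (edgeR adjusted p = 0.00957). Without vehicle replicate 2 the adjusted p of WASHC5 was 0.071, and without SSD replicate 2 that of WASHC2C was 0.0668, both above the threshold. Actin genes of the same role list did not pass. ACTR3, a subunit of the Arp2/3 complex that WASH activates, had 297 ± 16.4 TPM under vehicle and 291 ± 5.9 TPM under SSD, and CAPZB, the capping protein subunit, 299 ± 10.4 and 279 ± 2.9 TPM (SD, n = 3). Their edgeR adjusted p values were 1 and 0.82.

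Sorting on the endosome was represented by VPS36, SNX8 and VPS39. VPS36 (ENSG00000136100, chr13:52412602-52450628, minus strand), the ESCRT-II subunit that binds ubiquitin and phosphoinositides, was at 12.9, 10.6 and 11.0 TPM under vehicle and at 14.1, 17.1 and 17.5 TPM under SSD. The SSD libraries were all above the vehicle libraries, with SSD replicate 1 closest to them. The log2 fold change was 0.43 ± 0.11 (edgeR adjusted p = 0.0467), and the adjusted p was 0.198 without vehicle replicate 2. VPS39 (ENSG00000166887, chr15:42158701-42208316, minus strand), a subunit of the HOPS tether of late endosomes, was at 24.6, 24.7 and 23.7 TPM under vehicle and at 29.3, 31.4 and 32.3 TPM under SSD. It had a narrower spread than VPS36 and a log2 fold change of 0.29 ± 0.06 (edgeR adjusted p = 0.01005). The call was lost when any of 3 libraries was left out, vehicle replicates 2 and 3 and SSD replicate 2, and the adjusted p reached 0.0638 in the last case.

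SNX8 (ENSG00000106266, chr7:2251770-2354318, minus strand), a sorting nexin of early endosomes, was at 16.6, 20.3 and 15.7 TPM under vehicle and at 22.9, 27.5 and 34.0 TPM under SSD. Its groups did not overlap, but the SSD libraries spread widely. The log2 fold change of its counts was 0.38 ± 0.07 (edgeR adjusted p = 0.0115, and 0.0779 without vehicle replicate 2), a 1.3-fold rise, whereas its mean TPM rose 1.6-fold. TPM divides by a transcript length that the counting estimates in each library, so the 2 scales part where that length differs. For SNX8 the TPM change exceeded the count change by 0.30 on the log2 scale, and 5 of the 1099 listed genes, SNX8 included, had a difference as large or larger. WASHC5 was the other member with a difference over 0.1, at 0.11, against 10.9% of all listed genes. Which SNX8 transcripts are involved was not analysed here.

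Small GTPases of the Rab and Arf families mark compartments and recruit coats. The lists for these GTPases and proteins that act with them held 4 members, of which TBC1D5 and ARAP2 were called. TBC1D5 (ENSG00000131374, chr3:17157162-18444817, minus strand), a RAB7 GTPase-activating protein that binds retromer, was at 24.7, 20.9 and 22.3 TPM under vehicle and at 25.9, 31.5 and 35.1 TPM under SSD. SSD replicate 1 lay just above the highest vehicle library and the others well above it. The log2 fold change was 0.37 ± 0.07 (edgeR adjusted p = 0.0125, and 0.0754 without vehicle replicate 2). ARAP2 (ENSG00000047365, chr4:35948221-36244509, minus strand), a GTPase-activating protein of ARF6, was at 7.98, 7.21 and 7.32 TPM under vehicle and at 10.9, 9.44 and 10.2 TPM under SSD, without overlap. Its log2 fold change was 0.35 ± 0.07 (edgeR adjusted p = 0.0195, and 0.103 without vehicle replicate 2). MLPH, which links RAB27A to a myosin, had 53.0 ± 2.88 TPM under vehicle and 48.7 ± 2.05 TPM under SSD, and ARFIP2, an arfaptin, 69.1 ± 5.47 and 61.0 ± 4.69 TPM (SD, n = 3). Neither passed, with edgeR adjusted p values of 0.11 and 0.432.

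In the secretory route, the COPI subunit and a regulator of COPII were higher and the COPII coat genes did not pass. COPG2 (ENSG00000158623, chr7:130506238-130668748, minus strand), the gamma-2 subunit of coatomer, was at 20.8, 20.9 and 19.1 TPM under vehicle and at 25.8, 24.8 and 26.4 TPM under SSD. The groups were well separated, and the log2 fold change was 0.35 ± 0.06 (edgeR adjusted p = 0.00931). KLHL12, the CUL3 adaptor that ubiquitinates the COPII protein SEC31, was at 32.5, 30.3 and 30.8 TPM under vehicle and at 37.1, 37.2 and 39.6 TPM under SSD, also separated. Its log2 fold change was 0.29 ± 0.05 (edgeR adjusted p = 0.0109, and 0.0779 without vehicle replicate 2). For the coat subunits SEC23B, SEC13 and SEC24A the log2 fold changes were -0.08, -0.12 and -0.14, with the SSD libraries all at or below the lowest vehicle library in TPM, and adjusted p values of 1, 0.432 and 0.576 (edgeR). MCFD2, the partner of a cargo receptor for clotting factors, had a log2 fold change of -0.15 ± 0.06, overlapping groups and an edgeR adjusted p of 0.432.

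Further higher members act on late endosomes, in the escort of receptors and at the Golgi. OSBPL1A (ENSG00000141447, chr18:24162044-24397880, minus strand), an oxysterol-binding-related protein found on late endosomes, was at 23.2, 22.0 and 21.1 TPM under vehicle and at 28.5, 32.3 and 30.4 TPM under SSD. It did not overlap between groups and its call held in each alternative fit (log2 fold change 0.41 ± 0.06, edgeR adjusted p = 0.00533). UNC93B1 (ENSG00000110057, chr11:67991104-68004982, minus strand), which escorts nucleic acid-sensing Toll-like receptors from the ER to endosomes, was at 21.5, 20.7 and 20.2 TPM under vehicle and at 28.5, 26.4 and 26.1 TPM under SSD. Both groups were tight, with a log2 fold change of 0.37 ± 0.07 (edgeR adjusted p = 0.00982, and 0.0573 without vehicle replicate 2). WDR11, part of a complex that captures endosome-derived vesicles at the Golgi, was at 38.3, 35.0 and 38.5 TPM under vehicle and at 43.0, 45.5 and 47.6 TPM under SSD. Its groups were separate at a log2 fold change of 0.29 ± 0.07 (edgeR adjusted p = 0.0302, and 0.166 without vehicle replicate 2).

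The other higher members were CACFD1, ANK3, WLS, TLK1, ERP29, RHOB and the dynein light chain gene DYNLL2. WLS, the carrier of Wnt proteins to the surface, rose from 66.7 ± 2.42 to 80.9 ± 1.79 TPM (SD, n = 3; log2 fold change 0.28 ± 0.05, edgeR adjusted p = 0.00847). ERP29, a chaperone of the ER lumen, rose from 160 ± 3.3 to 192 ± 5.02 TPM, and RHOB, an endosomal GTPase, from 199 ± 6.79 to 232 ± 9.74 TPM. These are changes of 1.19-fold and 1.17-fold in counts. CACFD1, homolog of the fly vesicle protein Flower, was at 5.74, 4.08 and 4.77 TPM under vehicle and at 6.79, 5.45 and 10.3 TPM under SSD. Its groups overlapped, SSD replicate 3 was highest in TPM but SSD replicate 1 in counts, and without vehicle replicate 2 its edgeR adjusted p was 0.121 (0.022 with all libraries). ANK3, the membrane adaptor ankyrin-G, was called as well while SSD replicate 2, at 23.7 TPM, lay below vehicle replicate 3, at 23.8 TPM.

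Paralogs of the dynein light chain, which is shared by several motor complexes, did not share a call. DYNLL2 was at 26.2, 24.2 and 24.0 TPM under vehicle and at 27.1, 29.9 and 32.4 TPM under SSD, without overlap (log2 fold change 0.27 ± 0.07, edgeR adjusted p = 0.0376, and 0.175 without vehicle replicate 2). DYNLL1, the more abundant of them per length, was at 465, 444 and 458 TPM under vehicle and at 434, 447 and 442 TPM under SSD, with overlap (log2 fold change -0.09 ± 0.05, edgeR adjusted p = 1). DYNLL1 has 7 pseudogene copies in the annotation, to which reads could have been lost. Whether the changes of the 2 genes differ was not tested.

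**Figure D2:**
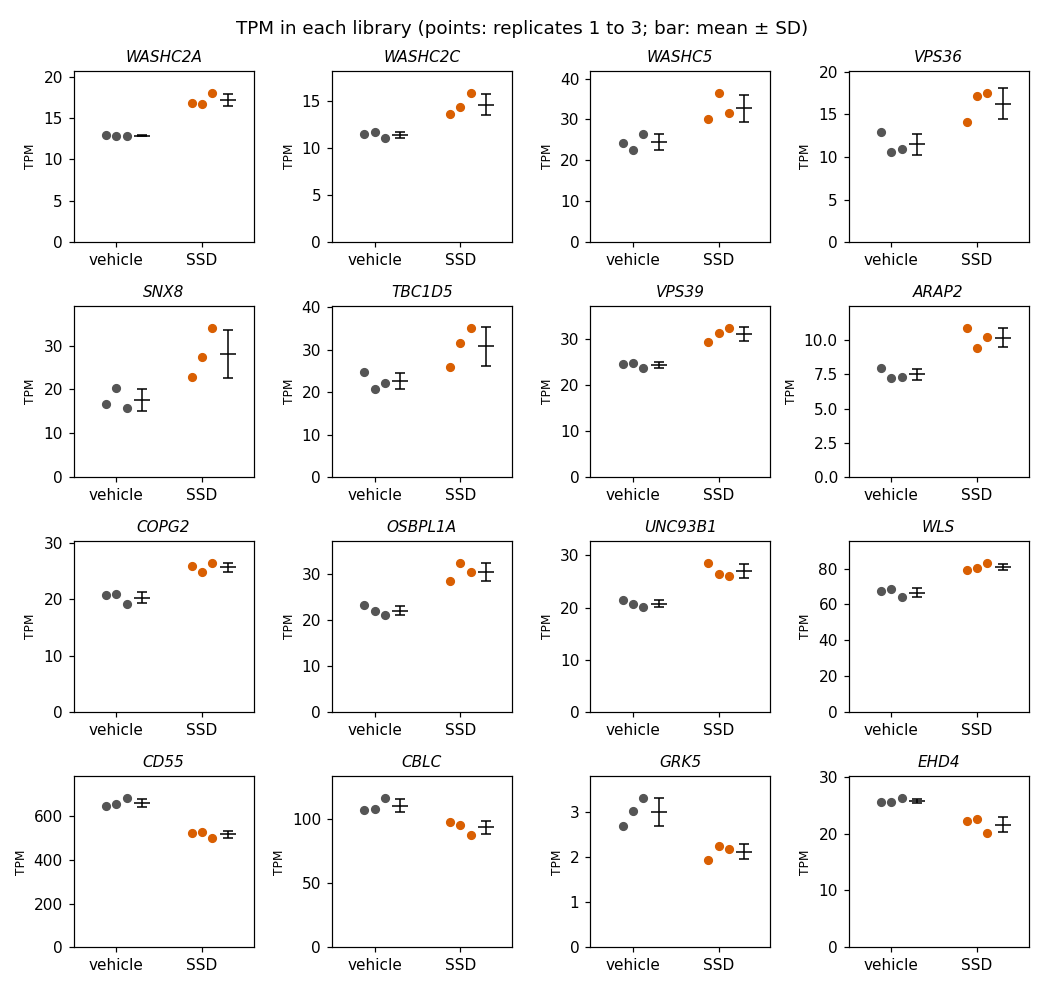
TPM (y axis, from 0) of 16 members in each library, vehicle in grey and SSD in orange, with the mean ± SD (n = 3) as a bar beside the points. In the first 12 panels the SSD libraries lie above all vehicle libraries, and in CD55, CBLC, GRK5 and EHD4 they lie below them.

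The members called lower include an abundant cell surface protein. CD55 (ENSG00000196352, chr1:207321376-207386804, plus strand), a lipid-anchored inhibitor of complement annotated to ER to Golgi transport, was the most abundant member. Its level was 645, 656 and 680 TPM under vehicle against 524, 525 and 499 TPM under SSD. The groups lay far apart relative to their spread, and SSD libraries held 78% of the vehicle counts (log2 fold change -0.36 ± 0.05, edgeR adjusted p = 0.00301). This call also passed on the TMM scale, at a log2 fold change of -0.29 and an adjusted p of 0.011.

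GRK5 (ENSG00000198873, chr10:119207589-119459742, plus strand), a kinase that marks activated G protein-coupled receptors for uptake, was at 2.68, 3.01 and 3.29 TPM under vehicle and at 1.92, 2.24 and 2.18 TPM under SSD. It is the scarcest member, and its log2 fold change of -0.50 ± 0.12 (edgeR adjusted p = 0.0318) did not pass on the TMM scale (adjusted p = 0.0778) nor without vehicle replicate 3 (0.153).

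CBLC, a ubiquitin ligase of the Cbl family that acts on growth factor receptors, had 111 ± 4.75 TPM under vehicle and 93.5 ± 5.37 TPM under SSD (SD, n = 3). EHD4, an ATPase of early endosomes, was at 25.5, 25.6 and 26.2 TPM under vehicle and at 22.2, 22.6 and 20.1 TPM under SSD. Both were lower in all SSD libraries, each at a log2 fold change of -0.24 ± 0.06, with edgeR adjusted p values of 0.037 and 0.0328. On the TMM scale their adjusted p was 0.399 and 0.398, and without vehicle replicate 3 it was 0.203 and 0.147. AP2S1, the small subunit of the AP-2 adaptor that gathers cargo into clathrin-coated pits, had 465 ± 31.3 TPM under vehicle and 425 ± 20.5 TPM under SSD with overlap (edgeR adjusted p = 0.29).

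The remaining members that did not pass were ARHGEF2, GOPC, CREB3L2, SPAG9, PIP5K1A and TGFA. They cover a GTPase exchange factor, a Golgi scaffold, a transcription factor that travels from ER to Golgi, a motor scaffold, a phosphoinositide kinase and a growth factor. Their log2 fold changes lay between -0.07 and -0.21, and 8 of the 16 members that did not pass had an unadjusted p under 0.05. Such a p is common in this table. Of genes below 0, called or not, 13 of 21 members had one, against 596 of 712 listed genes. Members called higher had a median level of 26.5 TPM, those called lower 102 TPM and those not called 108 TPM. In the whole table the genes called higher and lower had medians of 27.5 and 99.1 TPM.

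By annotation, 10 of the 17 members for intracellular protein transport were higher and 0 lower, at a median of 0.25 on the log2 scale. The other 7 were below 0, and 4 of them had an unadjusted p under 0.05, against 596 of the 712 listed genes below 0. In vesicle-mediated transport 3 of 5 were higher and 0 lower. The endocytosis pathway held both directions, with 5 of 12 higher and 4 lower and a median of -0.08, and on the TMM scale 5 and 0. Among the ER to Golgi members 4 of 12 were higher and 1 was lower, with a median of -0.10. Set beside 33.8% higher and 19.5% lower in the table as a whole, these are counts of few genes and carry no test.

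Trafficking genes that are not members were counted from role lists of 1029 genes written from textbook knowledge. The table held 39 of them. Of these, 15 were higher (38.5%, against 33.8% of all listed genes) and 3 lower (7.69%, against 19.5%). On the TMM scale 15 were higher and 0 lower, against 35% and 7.92% of all listed genes. Of the 39, PSAP, SORT1 and IGF2R belong to the lysosome or autophagy pathways. Without these 3, 12 of 36 were higher (33.3%), which is close to the share in the whole table. The list for retromer, sorting nexins and endosomal recycling held 4 besides SNX8, and all 4 were higher, where 33.8% of all listed genes were. They were the sorting receptors SORL1, at 11.7, 12.1 and 12.1 TPM under vehicle against 15.6, 16.3 and 17.0 TPM under SSD, and SORT1, which is also in the lysosome or autophagy pathways, with VPS35L, a subunit of the retriever complex, and TMEM87B. Their log2 fold changes were 0.44, 0.30, 0.31 and 0.40, with edgeR adjusted p values of 0.00183, 0.00403, 0.00704 and 0.0206.

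Among tethers, VPS52 and HPS3 were called higher besides VPS39, at log2 fold changes of 0.35 and 0.46, and BLOC1S6 did not pass. The ESCRT list held ZFYVE26 besides VPS36, at 0.34, though ZFYVE26 is not itself an ESCRT subunit. The Arf list held CYTH2 and ARFGEF3, at 0.30 and 0.36. ZFYVE26, CYTH2 and ARFGEF3 were all called higher. The list for protein import into the nucleus, ER and mitochondria held 17 genes, of which 0 were higher and 2 were lower, GRPEL1 and TIMM17A, at log2 fold changes of -0.26 and -0.23. The 2 lower genes make 11.8% of that list, against 19.5% of all listed genes. Neither passed on the TMM scale.

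Over all listed genes 33.8% were called higher and 19.5% lower, at a median log2 fold change of -0.14. Genes of the lysosome and autophagy pathways, which the choice of members left out, were mostly higher. Of these 34 genes, 28 (82%) were called higher and 2 (5.88%) lower, and their median log2 fold change was 0.33. Genes of the KEGG pathway for protein processing in the ER numbered 14. Among them 2 (14.3%) were higher and 1 (7.14%) lower, with a median of -0.11. The members lay between these lists in their share called higher and in their median, but not in their share called lower. Of the ER processing genes 4 were also members, ERP29, SEC23B, SEC13 and SEC24A, of which ERP29 was higher. The lists come from a table chosen for change, and no test of their difference was made.

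**Figure D3:**
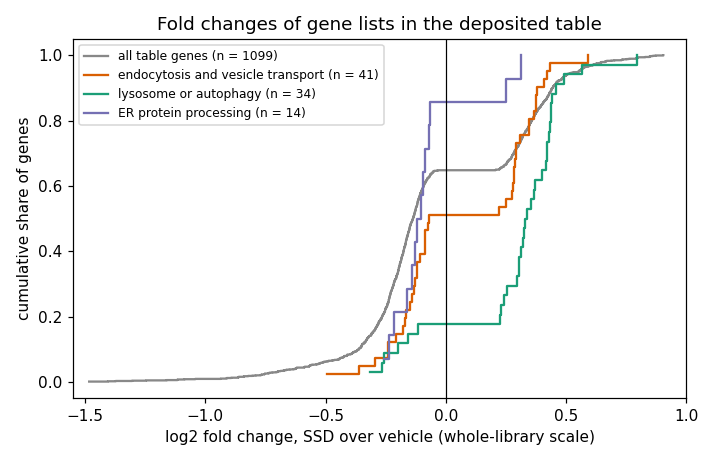
Cumulative share of genes (y axis) against the log2 fold change of SSD over vehicle (x axis) for the 41 members, the 34 lysosome or autophagy genes, the 14 ER protein processing genes and all 1099 listed genes. At 0 the members' curve stands at 21 of 41 genes, that of the lysosome or autophagy genes at 6 of 34, and the flat stretch right of 0 is the gap in the deposited table.

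Promoters of the members were read from RefSeq (GRCh38.p14; 250 bases before to 50 bases after each listed start), which held 33 of the 41 members. They were searched for CACGTG, the E-box core bound by MYC and by the lysosomal regulator TFEB among others, for TCACGTG, a longer form that contains it, and for CCAAT, on both strands and at any listed start of a gene. CACGTG occurred in 10 of the 33 members (30.3%), in 15.2% of the 881 listed genes with a promoter and in 8.77% of all 27305 genes. TCACGTG occurred in 6 members (18.2%), against 8.06% and 4.49%, and CCAAT in 15 (45.5%), against 42% and 39.7%. Of the 14 members called higher with a promoter, 6 held CACGTG, as did 0 of the 3 called lower and 4 of the 16 not called.

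For each of these 6 higher members, a stretch of 100 bases upstream of a listed start that holds CACGTG is shown. The stretches read 5′ to 3′ on the gene's strand with each CACGTG in capitals, to show where the matches lie.
WASHC2C: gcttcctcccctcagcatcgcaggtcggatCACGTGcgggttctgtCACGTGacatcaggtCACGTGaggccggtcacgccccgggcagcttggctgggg
OSBPL1A: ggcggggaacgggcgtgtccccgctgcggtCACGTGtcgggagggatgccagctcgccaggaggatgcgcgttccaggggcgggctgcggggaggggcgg
VPS36: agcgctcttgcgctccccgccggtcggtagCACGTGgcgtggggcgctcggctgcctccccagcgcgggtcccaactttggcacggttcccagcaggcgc
SNX8: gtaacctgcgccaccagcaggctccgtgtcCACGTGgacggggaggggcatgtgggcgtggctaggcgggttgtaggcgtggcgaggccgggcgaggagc
TBC1D5: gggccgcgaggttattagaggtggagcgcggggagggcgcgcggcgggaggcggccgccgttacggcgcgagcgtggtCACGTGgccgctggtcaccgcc
ERP29: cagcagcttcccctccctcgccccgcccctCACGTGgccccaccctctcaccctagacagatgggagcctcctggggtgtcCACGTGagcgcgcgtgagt

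The windows lie at chr10:45727146-45727245 (WASHC2C, plus strand), chr18:24397844-24397943 (OSBPL1A, minus strand), chr13:52450250-52450349 (VPS36, minus strand), chr7:2314569-2314668 (SNX8, minus strand), chr3:17742632-17742731 (TBC1D5, minus strand) and chr12:112013284-112013383 (ERP29, plus strand). By the GENCODE coordinates, the windows of TBC1D5, SNX8 and VPS36 lie inside the gene, before a listed start within it. The other windows overlap the outer end of their gene in part. Which starts are used in AGS cells was not tested. WASHC2C had 3 copies in its window, the first beginning 90 bases before its listed start, and ERP29 had 3 upstream copies of which 2 lie in the window. The others had 1 copy each, from 22 bases (TBC1D5) to 197 bases (SNX8) before the listed start. TCACGTG on either strand lies in the windows of WASHC2C, OSBPL1A, TBC1D5 and ERP29, while the match counted for SNX8 lies outside its window. A match of letters does not show that a factor binds there. The fold changes of the 6 genes ran from 0.25 (ERP29) to 0.43 (VPS36) on the log2 scale.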

How the data were processed

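RNA-seq was made from AGS cells given vehicle or SSD, with 3 libraries per group. The authors computed the deposited estimated counts and TPM values on a cloud platform; the aligner and counter are not given in the sources used here, and the submitters' processing notes name the build GRCh38.p13. Of the deposited counts, 33.5% were not whole, and all were rounded. The authors' p-values and adjusted p-values, with their fold changes and calls, also stand in the deposited table. These p-values were used only to learn that 11289 genes had been tested, and no other use was made of the authors' comparison. Columns were matched to samples by group and replicate number. Columns headed con were read as control, that is vehicle. The treated columns do not name SSD: they carry a code that matches the compound code and dose of the protocol fields. They were taken as the SSD samples.

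The whole table was fitted with edgeR 4.0.16 in R 4.3.3 (quasi-likelihood test, no replicate block), with library sizes proportional to the median ratio of count to TPM over genes of at least 50 counts, and Benjamini-Hochberg adjustment over 11289 genes, taking unlisted genes as having larger p. A call needs an adjusted p under 0.05. The standard error is the log2 fold change divided by the root of F. Alternatives were TMM, size factors and the Wald test of DESeq2 1.42.0, table totals, filters, the block, each library left out, limma 3.58.1 on log2 TPM with a pseudocount of 1 or 0.1, and adjustment over the table alone. The members' mean counts ran from 156 to 12375, which limits counting error but not the spread between libraries. The script was tested on simulated data.

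Members, lists, scale and tests were chosen with earlier results of these data known. Named members were the 12 with the largest log2 fold change in each direction among called ones whose counts averaged 100 or more and whose groups were separate in TPM, and the member with the smallest p in each role; other members are named to account for the list, after their values were seen. Libraries of a group differed beyond sampling noise (chi-square per degree of freedom 4.59 to 15.3). Same-numbered vehicle and SSD libraries did not deviate together (r = -0.0572, 0.0228 and 0.0237 across genes), so the numbers were not taken as pairs. The values of 1 member called lower are not reported here. Coordinates are from GENCODE release 29 (GRCh38).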

Additional observations from a re-analysis of the deposited data

How the results depend on the processing

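The count of members called higher was 20 with TMM, DESeq2 size factors, table totals, the DESeq2 Wald test, filterByExpr and adjustment over the table alone, and 19 with a minimum mean of 200 counts. It fell to 2 with a replicate block, to 5 with limma on log2(TPM + 1) and 5 on log2(TPM + 0.1), and to between 5 and 19 with 1 library left out. The replicate block, with numbers that do not pair the libraries, kept WASHC2A and OSBPL1A. The count of members called lower was 5 with the Wald test and both filters, 1 with TMM, 1 with DESeq2 size factors, 2 with table totals, 1 with the replicate block (CD55), 1 with limma at either pseudocount, 13 with adjustment over the table alone, and 1 to 5 with 1 library left out. The members' median log2 fold change of -0.07 became 0.0026 with TMM and 0.022 with DESeq2 size factors, -0.016 with table totals, -0.029 with limma at either pseudocount, and -0.074 to -0.044 with 1 library left out. The scale of TMM and size factors is set by the listed genes, most of which are below 0 here; the cause of the other shifts was not tested. No member named by the rule changed sign in any alternative, and WASHC2A, OSBPL1A and CD55 kept their calls in all of them. Among the other members, none of them called, ACTR3 changed sign with TMM and with DESeq2 size factors. ARHGEF2, SEC23B, CAPZB and DYNLL1 changed sign with DESeq2 size factors. Over all 1099 listed genes 371 were called higher and 214 lower in the main fit. With limma on log2(TPM + 1) these counts were 114 and 75, and with the replicate block 189 and 93. They were 385 and 87 with TMM, 387 and 86 with DESeq2 size factors and 386 and 126 with table totals. Adjustment over the table alone gave 387 and 580. With 1 library left out they ran from 169 to 382 and from 78 to 284. Depth beyond the listed genes is unknown, and genes outside the table were not analysed here.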
